A study of Arabidopsis thaliana with 20 samples.

Results

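Late-numbered miRNAs are the 80 miRNAs of the processed table whose miRBase number is 770 or more, without miR827 and miR857, and they are 80 of the 207 miRNAs measured (38.6%). The other 127 miRNAs are those numbered below 770 and miR827. Plant miRNAs guide ARGONAUTE proteins to mRNAs that pair with them along nearly their whole length, and most act by cleaving the mRNA. Ancient families such as miR156 or miR396 are shared by most land plants and regulate transcription factors, whereas many miRNAs registered later are known only from Arabidopsis and its relatives in the Brassicaceae, come from single loci and have few or no known targets. A registry number follows the order of discovery and not age. The late numbers include miR858, miR845 and miR2111, whose relatives are known from plants outside the Brassicaceae, and the low numbers include miR161 and miR163, which are known mainly from Brassicaceae. The 80 miRNAs are therefore named here by their numbers.

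Small RNAs were sequenced from shoots (all aerial parts, many seedlings pooled per sample) of wild-type Arabidopsis, accession Col-0. Seedlings that had spent 4 d in the dark were moved to continuous white light and taken after 1, 3, 6, 12 or 24 h, and these samples are written W1 h to W24 h. Seedlings taken at the end of the 4 d are written W0 h. All 6 time points were sampled in 3 biological replicates, for a total of 18 libraries. The TruSeq kit was used for replicates 1 and 2, whereas replicate 3 was prepared with Small RNA v1.5. The degradome libraries, which hold the 5′ ends of cut mRNAs, were 1 from light (a mixture of the 5 light time points) and 1 from dark. In the first hours of light a dark-grown seedling opens its cotyledons, greens and slows the growth of its hypocotyl.

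The sequences below are those of the late-numbered miRNAs on which the results turn: the 18 that changed in light, the most abundant ones, those with known targets, and the partners with which they are compared. Capitals mark the seed, bases 2 to 8 from the 5′ end. All 80 mature sequences matched the reference genome (TAIR10.1) letter for letter at their annotated places.

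The first set holds the miRNAs that rose at W24 h and their nearest relatives in the table.
miR833a-5p: uGUUUGUUguacucggucuagu
miR833b: uGUUUGUUgacaucggucuag
miR5642a and miR5642b: uCUCGCGCuuguacggcuuu
miR5635b, miR5635c and miR5635d: uGUUAAGGaguguuaacggug

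The second set holds the miRNAs that fell at W24 h, with miR841b-5p beside miR841a-5p and miR1886.1 beside miR5640, since each pair has 1 seed.
miR5024-3p: cCGUAUCUuggccuugucauu
miR5012: uUUUACUGcuacuuguguucc
miR840-5p: aCACUGAAggaccuaaacuaac
miR5646: gUUCGAGGcacguugggagg
miR841a-5p: uACGAGCCacuugaaacugaa
miR841b-5p: uACGAGCCacuggaaacugaa
miR822-5p: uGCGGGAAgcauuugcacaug
miR1886.2: uGAGAUGAaaucuuugauugg
miR1886.1: uGAGAGAAgugagaugaaauc
miR5640: uGAGAGAAggaauuagauuca
miR5652: uUGAAUGUgaaugaaucgggc
miR779.2: uGAUUGGAaauuucguugacu
miR5634: aGGGACUUugugaauuuaggg
miR775: uUCGAUGUcuagcagugcca
miR823: uGGGUGGUgaucauauaagau
miR829-3p.1: aGCUCUGAuaccaaaugauggaau
miR846-3p: uUGAAUUGaagugcuugaauu

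The third set holds abundant miRNAs and miRNAs with known targets that were not called at any time point.
miR8175: gAUCCCCGgcaacggcgcca
miR824-5p: uAGACCAUuugugagaaggga
miR824-3p: cCUUCUCAucgauggucuaga
miR858a: uUUCGUUGucuguucgaccuu
miR773a: uUUGCUUCcagcuuuugucuc
miR8180: uGCGGUGCgggagaagugc
miR5026: aCUCAUAAgaucgugacacgu

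The 80 miRNAs had 70 distinct sequences and 67 distinct seeds. A seed was shared by different late-numbered sequences in 3 cases (miR833a-5p with miR833b, miR841a-5p with miR841b-5p, and miR1886.1 with miR5640) and with another miRNA of the table in 1 case (miR5653 with miR398b-5p and miR398c-5p). Of the 70 sequences, 51 (72.9%) were 21 nt long and 10 (14.3%) were 22 nt long, against 61 (71.8%) and 10 (11.8%) of the 85 sequences of the other miRNAs. A 5′ U, the base that ARGONAUTE1 prefers, began 41 late-numbered sequences (58.6%) and 48 of the others (56.5%). A 5′ A began 18 late-numbered sequences (25.7%) and 10 of the others (11.8%). The length and the share with a 5′ U were thus close in both sets, and no test across sequences was made.

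The loci lay on all 5 chromosomes, with 10 to 24 miRNAs on each. An annotated protein-coding gene covered 30 of the 80 miRNAs. Of these, 19 lay on the gene's own strand (11 in introns and 8 in non-coding exon parts) and 11 on the opposite strand. Both miR5024 strands lay in an intron of AAP5, an amino acid permease gene, and miR862-5p lay in an intron of PKL, a chromatin remodeller gene. miR833a-5p (chr1:29525204-29525225, plus strand) and miR833b (chr1:29525264-29525284, minus strand) came from opposite strands of the same stretch of DNA, in an intron of AT1G78476. Exact copies in the nuclear genome numbered 1 for 53 of the miRNAs and more than 5 for 16 of them, which are 7 sequences. miR5643a/b had 15 copies and miR8166 had 13.

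The most abundant of the 80, miR8175 (chr2:3740938-3740957, plus strand), had the letters of a tRNA end. With the CCA that cells add to tRNAs, 22 of the 26 annotated tRNA-Asp genes end in exactly its 20 bases. The next longest stretch that any of the 80 shared with an annotated tRNA, rRNA, snoRNA or snRNA gene was 13 nt, in miR1886.2 and miR845a, and the stretch of miR845a came from tRNA-Met. Reads of miR8175 and of that tRNA end have the same letters, so the values do not tell them apart. miR5642a (chr3:14197116-14197135, plus strand) and miR5642b (chr2:3145-3164, plus strand) each lay 542 bases before an annotated rRNA gene (AT3G41768 and AT2G01010), and the next nearest of the other members was 765440 bases from one.

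Values are in RPM as deposited, which are reads scaled to the mapped reads of 20 to 24 nt of the library. The mapped 20 to 24 nt reads inferred from the values were 13426228 to 20445034 per library, so that 1 read was worth 0.0489 to 0.0745 RPM. A typical member rested on few reads, since the median member had 11.5 to 53.1 reads per library and 5 to 23 of the 80 had fewer than 5 reads. The study kept miRNAs with at least 5 reads in all 3 replicates at some time point, and by the inferred reads 77 of the 80 met this. No miRNA was listed at 0 in any library.

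The late-numbered miRNAs were far less abundant than the others. Their median level was 0.825 to 2.60 RPM over the 18 libraries, against 8 to 18 RPM for the other miRNAs. On the scale of log2(RPM + 0.1), the late-numbered median minus that of the others was −2.97 ± 0.24 (SD over the 3 replicates, each the mean of 6 libraries), which is a 7.82-fold lower level, and it was the lower one in every library (4.88-fold to 11.3-fold). Of the 80, 19 had a mean under 1 RPM, 47 had 1 to under 10 RPM, 11 had 10 to under 100 RPM and 3 (3.75%) had 100 RPM or more. Of the other 127, 51 (40.2%) had 100 RPM or more. Together the 80 miRNAs made up 0.155% to 0.908% of the RPM of all miRNAs in a library. With 1 value per distinct sequence the difference of the medians was −2.48. No shift of this difference in light was detectable. Its mean over the 5 light libraries minus its value at W0 h was 0.20, −0.22 and 0.50 in replicates 1, 2 and 3, so that its sign differed between replicates, and the mean shift was 0.16 (exact permutation of the W0 h position within replicates, two-sided p = 0.296, where the smallest p allowed is 0.00463).

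**Figure D1:**
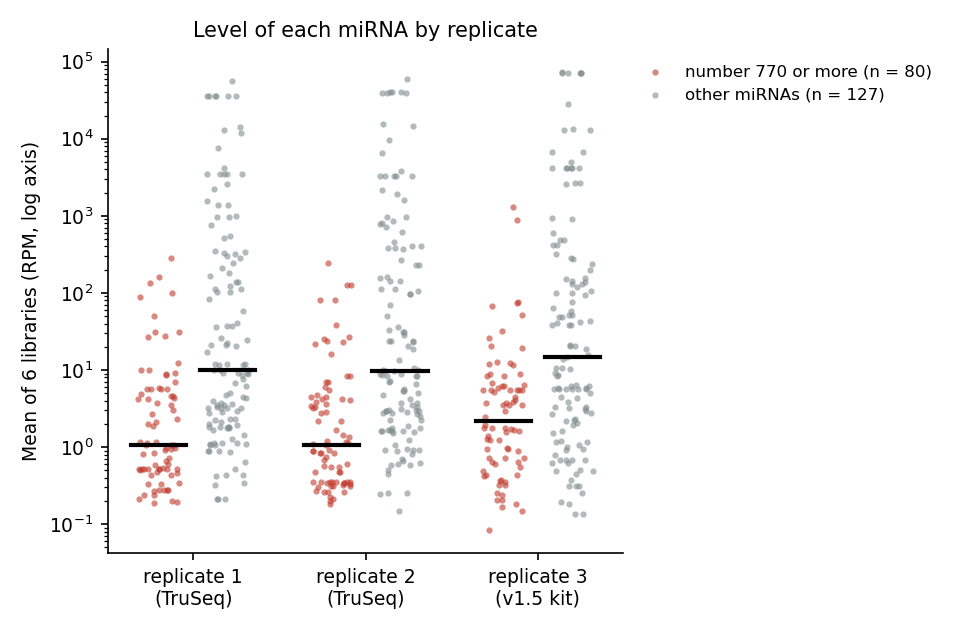
Mean level of each miRNA over the 6 libraries of a replicate, in RPM on a log axis, for the 80 late-numbered miRNAs (red, left of each pair) and the 127 other miRNAs (grey, right), 1 point per miRNA with black bars at the medians. In all 3 replicates the late-numbered median lies below that of the others, and 3 of the 80 miRNAs have a mean over the 18 libraries of 100 RPM or more.

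A few miRNAs carried most of the late-numbered reads. The sum over the 80 was 746 to 4625 RPM, of which the 5 most abundant made up 60.7% to 89.8%. miR8175 alone made up 13.02% to 72.0%, and without it the sum was 613 to 1600 RPM. After miR8175 (mean 608.4 RPM over the 18 libraries) came miR822-5p (356.1 RPM), miR829-3p.1 (117.8 RPM), miR5642a (87.1 RPM), miR824-3p (58.3 RPM), miR846-3p (37.8 RPM), miR775 (36.6 RPM), miR8180 (26.01 RPM), miR5026 (25.5 RPM) and miR5640 (18.5 RPM). By registry number, the 38 miRNAs up to miR869.2 had a median of 4.07 RPM, the 6 from miR1886.1 to miR2933b had 0.803 RPM, the 24 from miR4228-3p to miR5665 had 2.97 RPM and the 12 from miR8165 to miR8180 had 2.10 RPM.

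These means hide a large difference between replicates 1 and 2 on one side and replicate 3 on the other, which were made with different kits. Replicate 3 was more than 8-fold higher than the mean of replicates 1 and 2 for 21 of the 80 miRNAs and more than 8-fold lower for 13. At the extremes, miR8180 averaged 77.1 RPM in replicate 3, against 0.502 and 0.470 RPM in replicates 1 and 2, and miR5642a averaged 1.24 RPM in replicate 3, against 133.8 and 126.2 RPM. Replicates 1 and 2 lay much closer to each other, with log2 ratios of replicate 2 to replicate 1 between −0.79 and 1.62. The 127 other miRNAs were split in the same way, 28 more than 8-fold higher and 25 more than 8-fold lower in replicate 3. The order of the members by abundance therefore differs with the replicate. The kit and anything else particular to replicate 3, such as its plants, cannot be told apart.

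The rank of the 2 strands of a precursor was among the things that differed. miR824-3p exceeded miR824-5p, the strand known to cut the mRNA of AGL16 (a MADS-box factor of stomatal development), by 41.6-fold in replicate 1 and 49.3-fold in replicate 2. In replicate 3, miR824-5p exceeded miR824-3p by 5.21-fold. miR5024-3p exceeded miR5024-5p by 5.92-fold and 3.34-fold in replicates 1 and 2, and the ratio was 0.749 in replicate 3. For miR822, miR829, miR840, miR841a and miR846 the same strand was the higher one in all 3 replicates. The ratio of miR841b-5p to miR841b-3p was 0.709, 2.60 and 0.422 in replicates 1, 2 and 3, so that here replicates 1 and 2, made with the same kit, differed too. miR822-5p, which targets mRNAs of DC1 domain proteins, exceeded miR822-3p by 37.3-fold, 28.1-fold and 198.4-fold. Among the multi-copy sequences with more than 5 exact genome copies, 6 of 7 were higher in replicate 3 (median log2 ratio 3.29), and among the 53 single-copy miRNAs 26 were (median −0.32). The mapping setting stated in the paper leaves out reads with more than 5 genome matches. How the deposited values of these 7 sequences were counted was not found.

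**Figure D2:**
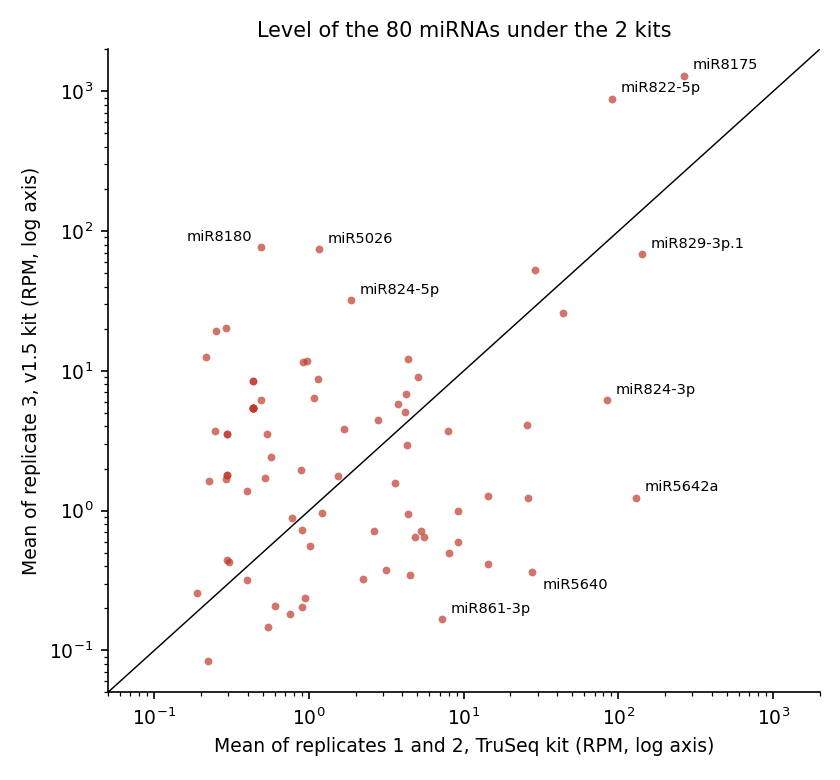
Level of each of the 80 late-numbered miRNAs in replicate 3 (vertical, v1.5 kit, mean of 6 libraries) against the mean of replicates 1 and 2 (horizontal, TruSeq kit, 12 libraries), both in RPM on log axes, with the line of equal level. Points far above the line, such as miR8180 and miR5026, and far below it, such as miR5642a and miR5640, show that 34 of the 80 miRNAs differed more than 8-fold.

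The light response was tested at each time point against W0 h in 1 model over all 207 miRNAs with replicate as a block (limma, adjusted p under 0.05 by Benjamini-Hochberg), and all 5 comparisons share the W0 h libraries. For the first 6 h no late-numbered miRNA was called, against 0.483% of all 207 miRNAs at each of these times. An unadjusted limma p under 0.05 was found for 2, 0 and 4 of the 80 after 1, 3 and 6 h of light, against 1.45%, 2.9% and 7.73% of all 207 miRNAs. All 80 fitted changes stayed within 2-fold, and their median log2 change was −0.08, 0.08 and −0.05, against −0.04, −0.06 and −0.10 for the other miRNAs.

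At W12 h, 6 of the 80 were called (7.5%), 1 higher and 5 lower, against 14% of all 207 miRNAs (1.45% higher and 12.6% lower). At W24 h, 18 were called (22.5%), 3 higher and 15 lower, against 35.3% of all 207 miRNAs and 55 of the other 127 (43.3%), of which 10 were higher and 45 lower. By direction, 6.28% of all miRNAs were called higher at W24 h and 29% lower. The share of late-numbered miRNAs called was below that of the whole table at both times, a difference that was not tested. These shares count rows, and 15 of the 80 rows and 66 of the other 127 have a sequence that another row repeats. Shares called over distinct sequences are not given for the others. In the fit of miRNAs with a mean of at least 10 RPM, 5 of 14 late-numbered miRNAs were called at W12 h (30.7% of all 88 miRNAs fitted) and 7 of 14 at W24 h (58% of all 88). Among these abundant miRNAs the late-numbered shares, 35.7% and 50% of 14, lay near those of the whole set. They are not read as a difference, and no test was made. The median log2 change at W24 h was −0.14 for the 80 and −0.54 for the others, but with 1 value per distinct sequence, which joins repeated rows in both sets, the medians were −0.42 and −0.38. At W12 h they were −0.24 and −0.36 over all rows, and −0.29 and −0.34 over distinct sequences.

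The calls at W24 h depended on the replicates. Fits without replicate 1, 2 or 3 called 2, 0 and 31 of the 80, the last with 5 higher and 26 lower, and at W12 h they called 0, 0 and 22. These counts are for the 80 only, and matching counts over all 207 miRNAs are not given, so they do not show a trait of the 80. Without replicate 1, 2 or 3 the median log2 change at W24 h was −0.03, −0.03 and −0.54 for the 80. For the others it was −0.35, −0.34 and −0.74. The median change within replicates 1, 2 and 3 was −0.67, −0.33 and 0.13 at W24 h for the 80. For all 207 miRNAs it was −0.71, −0.49 and 0.04, so the shift of replicate 3 was not particular to the 80. Replicates 1 and 2 changed in the same direction for 64 of the 80 miRNAs, and replicate 3 went the opposite way for 34 of these 64. For all 15 miRNAs called lower, replicate 3 had the smallest fall or a rise. These counts over replicates are for the 80 only. Of the 18 called miRNAs, 12 changed in 1 direction in all 3 replicates, against 58 of the 73 called among all 207. For miR779.2, miR5640 and miR846-3p the direction in replicate 3 rests on nearly equal reads. They had 6, 4 and 456 reads at W24 h, against 6, 4 and 457 at W0 h. Without the replicate block, 1 miRNA (miR833a-5p) was called at W24 h. The summed RPM of the 207 miRNAs at W24 h was 245184, 237116 and 544701 in replicates 1, 2 and 3. At W0 h it was 424705, 452912 and 581450. The median log2 change of all 207 miRNAs was itself −0.34 at W12 h and −0.40 at W24 h. After each library was rescaled so that this median was about 0, the calls among the 80 became 5 higher and 2 lower at W12 h and 8 higher and 5 lower at W24 h. Matching counts over all 207 miRNAs are not given here either. Rescaling moved both sets up alike, to median log2 changes at W24 h of 0.27 for the 80 and −0.13 for the others. The 5 that stayed lower relative to the median miRNA at W24 h were miR5024-3p, miR5012, miR5646, miR822-5p and miR841a-5p. The 3 that were called higher stayed higher after rescaling. With 1 value per distinct sequence, however, 1 late-numbered miRNA (miR833a-5p) was called higher at W24 h and none at W12 h, with 14 and 3 lower. The counts over all distinct sequences are not given. The other 5 called higher after rescaling were miR4228-3p, miR5663-5p, miR773a, miR841b-5p and miR869.2, with rescaled log2 changes of 0.79 to 1.16.

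**Figure D3:**
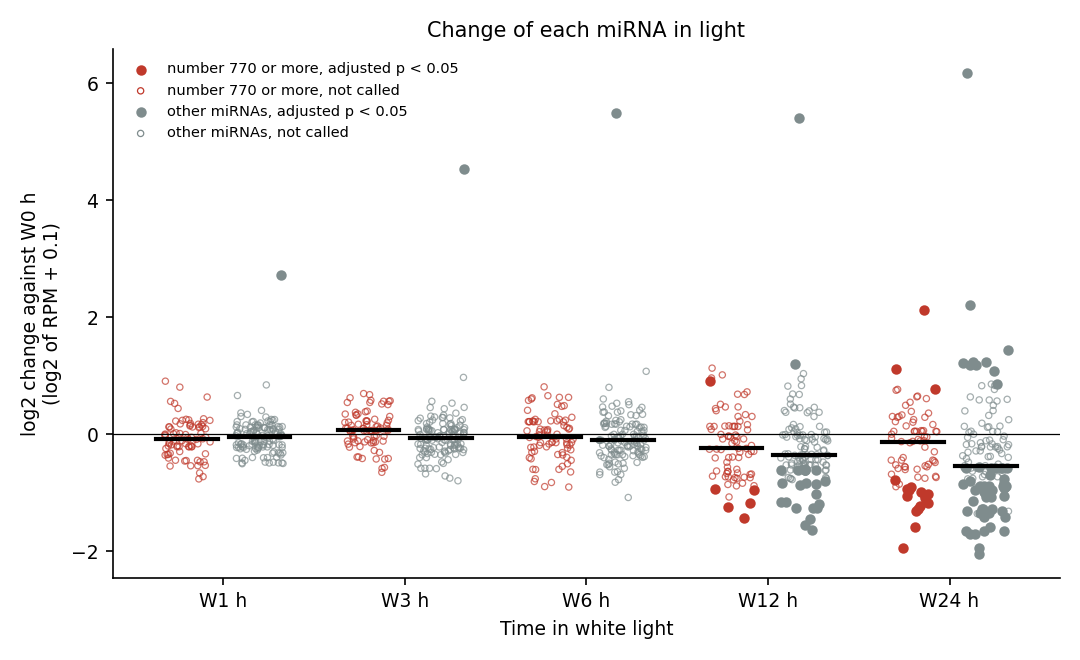
Fitted log2 change against W0 h of each late-numbered miRNA (red, left of each pair) and each other miRNA (grey, right) at the 5 light time points, on the scale of log2(RPM + 0.1), with filled points for an adjusted p under 0.05 and black bars at the medians. Among the late-numbered miRNAs no point is filled up to W6 h, 6 are at W12 h and 18 at W24 h, most of them below 0.

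miR833a-5p had the largest rise of the 80 at W24 h. It measured 1.04, 1.23 and 1.01 RPM at W24 h in replicates 1, 2 and 3, against 0.47, 0.06 and 0.12 RPM at W0 h. The groups did not overlap, and the level stayed at 0.05 to 0.47 RPM in all 15 earlier libraries. The fitted log2 change was 2.13 ± 0.39 (SE, adjusted p = 0.000310, limma), and it was positive in 3 of 3 replicates (1.00, 3.06 and 2.33). These values rest on 14, 20 and 18 reads at W24 h, against 7, 1 and 2 reads at W0 h, and the ratio of the summed levels was 5.21 with a 95% counting interval of 2.62 to 11.5, which covers counting error only. With a pseudocount of 1 RPM the log2 change was 0.80 (adjusted p = 6.76e-05, limma; 6.76e-05 to 0.398 over all alternatives). miR833b, which has the same seed and lies on the other strand of the locus, measured 0.22, 0.18 and 0.39 RPM at W24 h, against 0.2, 0.19 and 0.23 RPM at W0 h. Its log2 change at W24 h was 0.20 ± 0.32 and was not called (adjusted p = 0.649, limma). After 1, 3, 6 and 12 h of light the log2 change of miR833b was 0.80, 0.57, 0.63 and 0.68, positive in 3 of 3 replicates each time and not called, although after rescaling it was called at W12 h with a log2 change of 1.00.

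miR5642a and miR5642b have the same 20 bases, yet the deposited values separate them. miR5642a measured 193.91, 210.36 and 1.07 RPM at W24 h, against 104.28, 75.68 and 1.13 RPM at W0 h. It was higher at W24 h in replicates 1 and 2 and not in replicate 3, where all values were near 1 RPM. The log2 change was 0.90 ± 0.28 at W12 h (adjusted p = 0.0432, limma; higher in 3 of 3 replicates) and 0.77 ± 0.28 at W24 h (adjusted p = 0.0399, limma; higher in 2 of 3). miR5642b measured 13.44, 15.37 and 1.01 RPM at W24 h, against 29.52, 18.9 and 1.13 RPM at W0 h. It was the lower one at W24 h in every replicate, with a log2 change of −0.52 ± 0.28 that was not called (adjusted p = 0.152, limma) except in the fit without replicate 3. The sequence matched the nuclear genome exactly at 3 places, the third (chr2:7191162-7191181, plus strand) inside the protein-coding gene AT2G16586. Reads of 1 sequence cannot be assigned to 1 of these places by their letters, so these values do not measure the loci separately. The paper states that reads of a family were divided equally among its members, and the reason for the unequal values was not found. With the values of miR5642a and miR5642b joined, the log2 change was 0.83 ± 0.27 at W12 h (adjusted p = 0.0556, limma) and 0.59 ± 0.27 at W24 h (adjusted p = 0.105, limma), and neither was called.

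miR5635d was the third miRNA called higher, and it shares its sequence with miR5635b and miR5635c. It measured 1.06, 0.86 and 2.95 RPM at W24 h, against 0.13, 0.26 and 3.98 RPM at W0 h. The value at W24 h was higher in replicates 1 and 2 and lower in replicate 3 (log2 change 1.11 ± 0.40, adjusted p = 0.0350, limma). With a pseudocount of 1 RPM it was 0.36 and no longer called (adjusted p = 0.110, limma; 0.00161 to 0.996 over all alternatives). miR5635b and miR5635c measured 0.39, 0.31 and 2.83 RPM each at W24 h, against 0.16, 0.2 and 4.04 RPM at W0 h, and were not called. As with miR5642a/b, such values do not measure the loci separately, and for the joined sequence the log2 change at W24 h was 0.64 ± 0.36 and was not called (adjusted p = 0.180, limma).

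miR5024-3p had the largest fall at W24 h. It measured 1.56, 1.35 and 0.45 RPM at W24 h, against 8.1, 8.01 and 1.05 RPM at W0 h, and was the lower one at W24 h within each replicate. In replicates 1 and 2 the level was already lower at W6 h (5.46 and 4.61 RPM) and W12 h (3.51 and 2.92 RPM). The log2 change was −1.24 ± 0.35 at W12 h (adjusted p = 0.0276, limma) and −1.95 ± 0.35 at W24 h (adjusted p = 0.000310, limma), with −2.30, −2.48 and −1.06 in replicates 1, 2 and 3 at W24 h. The 5p strand of the same precursor moved less. miR5024-5p measured 0.45, 1.17 and 1.01 RPM at W24 h, against 0.8, 1.62 and 1.16 RPM at W0 h, a log2 change of −0.44 ± 0.36 that was not called (adjusted p = 0.358, limma). The fall of the 3p strand exceeded that of the 5p strand by 1.59, 2.05 and 0.88 on the log2 scale in replicates 1, 2 and 3. This difference was not tested.

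**Figure D4:**
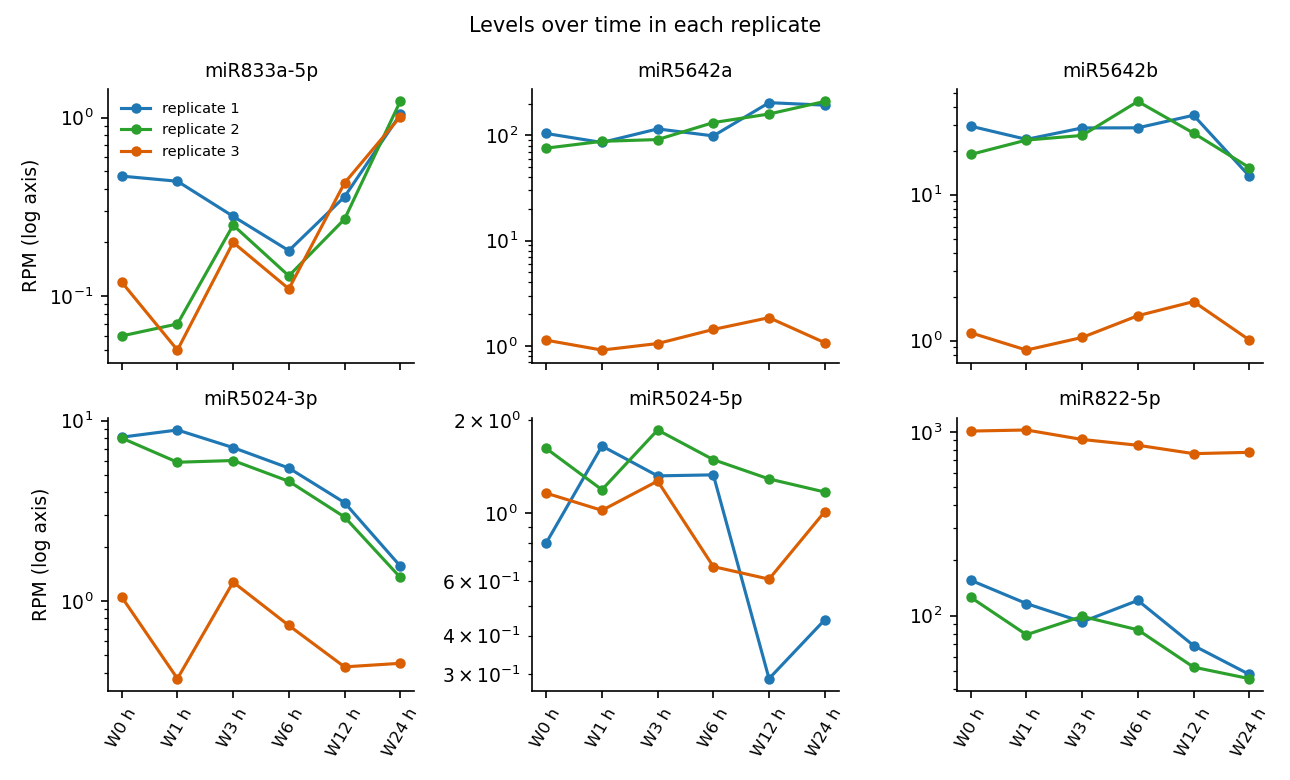
Level of 6 late-numbered miRNAs in RPM (log axis, separate range in each panel) over the 6 time points, with 1 line per replicate. miR833a-5p is at 1.01 to 1.23 RPM at W24 h in all 3 replicates, miR5642a and miR5642b diverge at W24 h in replicates 1 and 2 and overlap in replicate 3, and miR5024-3p and miR822-5p are lower at W24 h than at W0 h in each replicate.

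Other miRNAs with a lower level at W24 h in all 3 replicates included miR5012 and miR5646. miR5012 measured 0.74, 1.17 and 0.17 RPM at W24 h, against 4.08, 3.62 and 0.41 RPM at W0 h, with log2 changes of −1.43 ± 0.36 at W12 h (adjusted p = 0.0151, limma) and −1.59 ± 0.36 at W24 h (adjusted p = 0.00204, limma). Its W12 h values were 0.79, 0.88 and 0.36 RPM, so that replicates 1 and 2 had reached their low level by then. miR5646 measured 0.07, 0.12 and 0.34 RPM at W24 h, against 0.4, 0.45 and 0.75 RPM at W0 h. These are 1, 2 and 6 reads against 6, 7 and 13 reads, and the ratio of the summed levels was 0.347 with a 95% counting interval of 0.143 to 0.764. The groups did not overlap, and the log2 change was −1.17 ± 0.34 at W12 h (adjusted p = 0.0325, limma) and −1.28 ± 0.34 at W24 h (adjusted p = 0.00677, limma). With a pseudocount of 1 RPM these values became −0.36 and −0.38.

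Several of the miRNAs that fell have targets known in Arabidopsis. Of miR822-5p, miR846-3p, miR775 and miR823, only miR822-5p stayed called lower at W24 h after the rescaling above. miR822-5p measured 47.97, 45.48 and 773.53 RPM at W24 h, against 155.88, 125.84 and 1009.55 RPM at W0 h. It was lower within each replicate, with a log2 change of −0.95 ± 0.26 at W12 h (adjusted p = 0.0227, limma) and −1.18 ± 0.26 at W24 h (adjusted p = 0.00170, limma). Its partner miR822-3p had a log2 change of −0.75 at W24 h and was not called. miR846-3p, which targets mRNAs of jacalin-like lectins, measured 26.22, 25.53 and 25.59 RPM at W24 h, against 71.35, 47.03 and 26.54 RPM at W0 h. The values at W24 h were nearly equal in the 3 replicates and lay below every W0 h value, that of replicate 3 by little, and the log2 change was −0.94 ± 0.30 at W12 h (adjusted p = 0.0432, limma) and −0.79 ± 0.30 at W24 h (adjusted p = 0.0447, limma). miR842, made from the same locus and aimed at the same lectin mRNAs, measured 1.34, 1.04 and 2.3 RPM at W24 h, against 2.14, 1.49 and 1.34 RPM at W0 h, and was not called (log2 change −0.13).

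For miR775 and miR823 replicate 3 did not follow the other two. miR775, which targets the mRNA of a galactosyltransferase, measured 13.18, 13.56 and 61.38 RPM at W24 h, against 40.09, 37.21 and 56.97 RPM at W0 h (log2 change −0.98 ± 0.33, adjusted p = 0.0238, limma). miR823, which targets the mRNA of the DNA methyltransferase CMT3, measured 2.23, 1.29 and 6.73 RPM at W24 h, against 6.36, 3.94 and 6.1 RPM at W0 h (log2 change −0.96 ± 0.34, adjusted p = 0.0307, limma). Both were lower in replicates 1 and 2 and slightly higher in replicate 3. miR829-3p.1, the third most abundant of the 80, was lower in each replicate. It measured 95.08, 62.2 and 62.96 RPM at W24 h, against 170.64, 169.42 and 85.43 RPM at W0 h (log2 change −0.91 ± 0.26, adjusted p = 0.0105, limma).

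miR840-5p and miR841a-5p had large falls in replicates 1 and 2 only. miR840-5p measured 1.79, 0.86 and 0.34 RPM at W24 h, against 7.3, 4.97 and 0.23 RPM at W0 h (log2 change −1.32 ± 0.40, adjusted p = 0.0149, limma). Its partner miR840-3p measured 0.52, 0.61 and 0.28 RPM at W24 h, against 1.14, 0.97 and 0.06 RPM at W0 h, and was not called. miR841a-5p measured 4.25, 6.94 and 1.18 RPM at W24 h, against 16.6, 24.81 and 1.1 RPM at W0 h (log2 change −1.22 ± 0.33, adjusted p = 0.00684, limma). Both had low values in replicate 3, with 6 reads and 21 reads at W24 h. miR841b-5p has the same seed as miR841a-5p but measured 6.41, 20.62 and 0.84 RPM at W24 h, against 6.63, 22.35 and 0.17 RPM at W0 h. It stayed level in replicates 1 and 2, where miR841a-5p had log2 changes of −1.94 and −1.82, and was not called (log2 change 0.55, adjusted p = 0.177, limma).

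The last miRNAs called lower at W24 h were miR1886.2, miR5652, miR779.2, miR5634 and miR5640, which were all lower in 3 of 3 replicates. miR1886.2 measured 1.71, 3.13 and 9.65 RPM at W24 h, against 7.7, 6.4 and 10.69 RPM at W0 h (log2 change −1.09 ± 0.37, adjusted p = 0.0274, limma). miR779.2 measured 1.94, 2.27 and 0.34 RPM at W24 h, against 8.7, 4.65 and 0.35 RPM at W0 h (−1.05 ± 0.38, adjusted p = 0.0350, limma). In both, replicate 3 differed little between the times. miR5652, which lies antisense to the coding exon of RPF6 (AT1G63130, a PPR protein gene), measured 0.97, 0.74 and 3.2 RPM at W24 h, against 2.88, 2.07 and 4.01 RPM at W0 h (−1.05 ± 0.34, adjusted p = 0.0195, limma). The paper lists RPF6 among the expressed loci that make phased siRNAs, and miR5652 (chr1:23413402-23413422) lies inside the phased window given there. Whether its reads belong to those siRNAs was not tested. miR5634 measured 0.52, 0.55 and 0.17 RPM at W24 h, against 1.74, 1.16 and 0.29 RPM at W0 h (−1.02 ± 0.32, adjusted p = 0.0195, limma). miR5634 was near the limit of detection in replicate 3, with 3 reads at W24 h. miR5640, which lies in an intron of the callose synthase gene CALS1, measured 14.37, 14.24 and 0.22 RPM at W24 h, against 41.9, 33.14 and 0.23 RPM at W0 h (−0.93 ± 0.35, adjusted p = 0.0414, limma). Its fall was carried by replicates 1 and 2, since replicate 3 had 4 reads at either time.

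**Figure D5:**
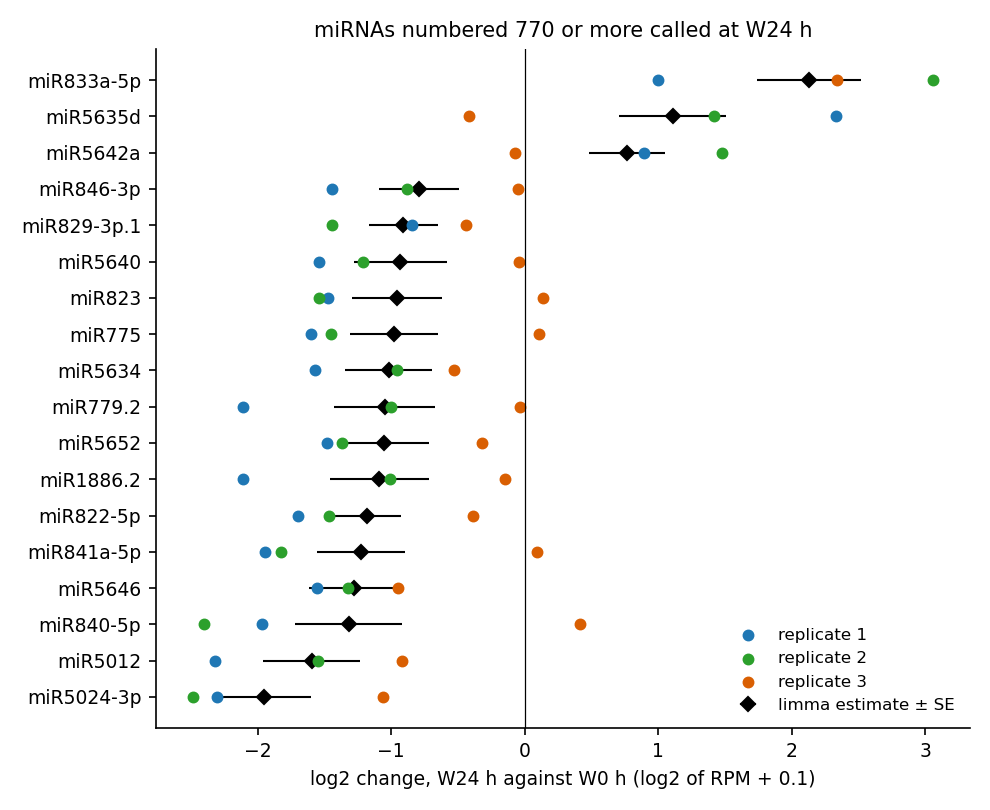
log2 change at W24 h against W0 h of the 18 late-numbered miRNAs called at that time, with 1 coloured point per replicate and black diamonds with bars for the limma estimate ± SE. For all 15 miRNAs called lower the replicate 3 point lies to the right of the other two, and miR833a-5p is above 0 in all 3 replicates.

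Other members with known targets did not pass the test at any time point. miR773a, which targets the mRNA of the DNA methyltransferase MET2, measured 4.25, 4.6 and 7.24 RPM at W24 h, against 4.08, 3.91 and 3.89 RPM at W0 h. It was higher at W24 h in each replicate (log2 change 0.39 ± 0.25, adjusted p = 0.241, limma), and it passed the test only after the rescaling above. miR858a, which targets mRNAs of MYB factors of flavonol synthesis, measured 36.05, 30.35 and 2.81 RPM at W24 h, against 24.63, 16.6 and 1.48 RPM at W0 h. It too was the higher one in each replicate, but its spread among time points within replicate 3 (1.48 to 8.02 RPM) was wide, and the log2 change of 0.77 ± 0.46 was not called (adjusted p = 0.195, limma) except in the fit without replicate 3. miR858b followed it with a log2 change of 0.33 ± 0.40. miR824-5p measured 1.94, 1.72 and 30.92 RPM at W24 h, against 2.81, 1.94 and 30.66 RPM at W0 h. miR845a (a regulator of retrotransposons in pollen), miR844-3p, miR863-3p and miR2111b-3p had log2 changes at W24 h of −0.11, −0.46, −0.40 and −0.85 and were not called.

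miR8175 was not called either, although its values moved widely. At W12 h it measured 383.19, 342.27 and 3329.27 RPM in replicates 1, 2 and 3, against 232.18, 216.35 and 831.08 RPM at W0 h. It was higher in each replicate at W12 h (log2 change 1.13 ± 0.40, adjusted p = 0.0553, limma), and it passed the test there after the rescaling above and in the fit of miRNAs with a mean of at least 10 RPM. At W24 h it measured 393.78, 469.83 and 798.84 RPM, higher than W0 h in replicates 1 and 2 and lower in replicate 3. The single library of replicate 3 at W12 h set the highest sum of late-numbered RPM in the data.

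By registry number, the calls at W24 h comprised 1 higher and 8 lower among the 38 miRNAs up to miR869.2, 1 lower among the 6 from miR1886.1 to miR2933b, 2 higher and 6 lower among the 24 from miR4228-3p to miR5665, and 0 among the 12 from miR8165 to miR8180. Of all 207 miRNAs, 6.28% were called higher and 29% lower at W24 h, and differences between these groups were not tested. The last group holds 7 sequences. Its median level in replicates 1, 2 and 3 was 0.515, 0.357 and 5.43 RPM, so that it rests mainly on replicate 3. None of its 12 members is a replicate of another, and miR8167a to miR8167f are 1 sequence with the same values in every library.

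Among the degradome records that name a query sequence, none related to a late-numbered miRNA met the study's rule. The rule was category 2 or better in CleaveLand with a p of 0.05 or less, and 5 or more reads at the cut. The records analysed were the 416 of the light library and the 280 of the dark library that name a query sequence, and a query was called related when it shared at least 16 nt with a member. Records filed under miRNA names were not analysed here. Without the minimum of reads there were 3 records. In the light library a query identical to miR5652 had 3 reads at position 632 of AT1G27420.1 (category 1). In the dark library a 24 nt query that shares 18 nt with miR5653 had 4 reads at position 27 of AT2G22668.1, the miR405a precursor (category 0), and 3 reads at position 561 of AT4G18460.1 (category 1). With 1 library per condition and 3 or 4 reads, light and dark were not compared.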

How the data were processed

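The authors mapped adaptor-trimmed reads to TAIR10 with Bowtie (1.0.0 per the submitters' processing notes), counted reads equal to a mature miRNA, divided reads of a family among its members and deposited RPM values, normalized to mapped reads of 20 to 24 nt. Their table calls the unit TPM, but small RNAs are not scaled by length. Reads behind the values were inferred from the smallest step on which all phasiRNA values of a library are whole (within 0.02 reads). Between 59.8% and 77.5% of the miRNA values below 3 RPM were whole within 0.1 reads, so no count model was run. The authors' CleaveLand4 records (4.3 per the submitters' processing notes, where the Methods name another version), other text with a deposited p-value per site, were used as given.

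Changes were fitted with limma 3.58.1 in R 4.3.3 on log2(RPM + 0.1) of 207 miRNAs in 18 libraries, with time point and replicate as terms, eBayes with a trend, and Benjamini-Hochberg adjustment per time point. The model was tested on simulated data. The replicate term takes up differences in level between the 3 biological replicates, of which the third was made with another kit. p-values therefore rest on the scatter left after both terms, which is how far the changes over time differ among replicates. This scatter was pooled over all time points and moderated by eBayes. Libraries of the same replicate deviated together (median r over 15 pairs of time points 0.902, 0.909 and 0.972 for the 80 miRNAs), which a kit difference alone could give. Python 3.11.15, numpy 2.4.6, scipy 1.17.1 and matplotlib 3.10.9 were used for the rest. Sequences came from the study's supplementary table, places and gene classes from RefSeq (TAIR10.1).

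The text names members called at any time, the 10 most abundant, miR833a-5p, miR5642a and miR5024-3p, members with a cleavage record or a known target, and their strand and sequence partners. The other members named were chosen after their values were seen. The members and lists were chosen with earlier results of these data known. Alternatives were pseudocounts of 1 and 0.01 RPM, means of at least 1 or 10 RPM, rescaling, no block, no trend, leaving out each replicate, a one-sample test and distinct sequences. All columns were used (0 left out).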

Additional observations from a re-analysis of the deposited data

How the results depend on the processing

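No late-numbered miRNA was called at W1 h, W3 h or W6 h under any alternative run. Without the replicate block the calls were 0 at W12 h and 1 at W24 h. A one-sample test within replicates called 0 at all 5 times, and with 3 values per miRNA it says nothing about stability. Leaving out 1 replicate gave 0 to 22 calls at W12 h and 0 to 31 at W24 h. Distinct sequences gave 3 calls at W12 h (all lower) and 15 at W24 h (1 higher and 14 lower), and a mean of at least 10 RPM left 14 miRNAs and 7 calls at W24 h. Rescaling turned the median change to 0.079 at W12 h and 0.27 at W24 h, and that of the other miRNAs to −0.041 and −0.13. The median change at W3 h ranged from −0.064 without replicate 3 to 0.13 without replicate 1. The distance of the median level from the other miRNAs was −2.36 with a pseudocount of 1 RPM, −2.54 and −2.48 with a mean of at least 1 or 10 RPM, and −2.48 with distinct sequences. Without a minimum of reads there were 3 cleavage records among those that name a query sequence. No called change took the opposite sign under any alternative. The count-based fits that were planned were not run, because reads of families had been divided. Depth limits the members under 5 reads.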
